A study of Mus musculus with 12 samples.

Results

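Genes that mark the epithelium of the pancreatic duct were followed in RNA from isolated mouse islets. The 9 genes are the keratins Krt7, Krt8, Krt18 and Krt19, the transcription factor Sox9, the secreted phosphoprotein Spp1 (osteopontin), the chloride channel Cftr, the membrane mucin Muc1 and the adhesion molecule Epcam. They were taken by exact gene name from the deposited islet table, in which each had a single entry among 24078 entries. All of them had a value above 0 in each of the 12 samples and passed the filter of a mean of at least 0.1 RPKM, which left 21701 entries. RPKM, reads per kilobase of transcript and per unit of mapped reads, correct for transcript length and library size, so they can be set side by side between genes.

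The islets came from male mice aged 5 to 6 months, F2 hybrids of 129S6/SvEvTac and C57BL/6, with 4 wild-type animals (WT), 4 heterozygous (Wfs1HZ) and 4 homozygous (Wfs1KO) for the Wfs1tm1Koks mutation. In this allele most of exon 8 of Wfs1 is replaced by a LacZ cassette, and a truncated WFS1 protein fused to LacZ is still made. Wfs1 codes for wolframin, a membrane protein of the endoplasmic reticulum that is mutated in Wolfram syndrome. Islets were freed with collagenase and picked by hand. The paper describes culture overnight ahead of its insulin secretion assay, and does not say whether islets for RNA were cultured too. RNA of each animal was sequenced separately. Hence 1 animal is 1 replicate, and p-values measure the spread between these animals.

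The exocrine pancreas consists of acinar cells, which make digestive enzymes, and of ducts, which carry the juice and add bicarbonate. Keratins are the intermediate filaments of epithelial cells and pair a type I with a type II chain. Krt8 (type II) and Krt18 (type I) are the common pair of simple epithelia, acinar cells included, whereas Krt7 (type II) and Krt19 (type I) are more typical of duct cells. Sox9 maintains the duct cell state, Cftr lets chloride and bicarbonate into the duct, Muc1 coats the apical surface and Epcam is found on most pancreatic epithelial cells, endocrine cells included. In bulk RNA of an islet preparation, fewer cells of a type and less RNA per cell cannot be told apart.

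The labels were checked first. Wfs1 was at 28.6 ± 3.83 RPKM in WT, 11.1 ± 5.59 in Wfs1HZ and 4.40 ± 1.83 in Wfs1KO islets (mean ± SD, n = 4 each), and the difference between Wfs1KO and WT was -2.76 on the log2(RPKM + 0.1) scale (SE 0.29, limma adjusted p = 0.0400). Wfs1KO and Wfs1HZ overlapped (difference -1.24, exact two-sided permutation p = 0.0857). Wfs1HZ animal 2, at 4.69 RPKM, lay within the range of Wfs1KO (2.45 to 6.61 RPKM), so the Wfs1 level does not tell it from a Wfs1KO animal. Ins2, an insulin gene, was between 6423 and 76687 RPKM in the 12 animals, and Gcg, the glucagon gene, between 50073 and 217165 RPKM. Such levels mark the preparations as holding islet RNA. Ins2 exceeded Gcg only in WT 1, WT 4 and Wfs1HZ 4. In Wfs1HZ 2 and Wfs1KO 4 Ins2 was at 6423 and 9199 RPKM, and Gcg at 155286 and 217165 RPKM. Mafa, a transcription factor of beta cells, was listed at 0 in 10 of the 12 animals. The reads behind the RPKM were estimated at 2190000 to 9570000 per sample, and the lowest estimate for any of the 9 genes was 23.8 reads, for Muc1 in Wfs1KO animal 4. The paper reports larger read numbers per sample, and the reason for this gap was not tested. At 2190000 reads, 3 reads on a transcript of 2 kb are worth 0.685 RPKM, and this floor covers counting error only. Libraries of 4 animals stood apart from the rest. Wfs1HZ animal 2 had the lowest median rank correlation with the other samples (0.860 against 0.904 to 0.931) and the fewest reads. Together with Wfs1KO animal 4 it had little acinar RNA: the 14 acinar markers summed to 9559 RPKM in Wfs1HZ 2 and to 9440 RPKM in Wfs1KO 4. In Wfs1HZ 4 and Wfs1KO 3 they summed to 318329 and 291398 RPKM, more than the endocrine markers (201929 and 97392 RPKM), and in the remaining 8 animals to between 56019 and 125218 RPKM. Differences and correlations of the 9 genes that rest on these animals are given with and without them. Genotype differences of other listed genes and the rankings by likeness were not repeated without them.

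The 4 keratin genes lie on 2 chromosomes of the mouse genome (GRCm38, the build named mm10, GENCODE M21 annotation). Krt8 (chr15:101996698-102004482, minus strand) and Krt18 (chr15:102028180-102032027, plus strand) point away from each other with 23.7 kb between them. Krt7 (chr15:101411043-101430313, plus strand) lies 566 kb from Krt8, and Krt19 (chr11:100140810-100148665, minus strand) is on the chromosome of Sox9 (chr11:112782224-112787760, plus strand). The others are Spp1 (chr5:104435118-104441050), Cftr (chr6:18170687-18322768), Muc1 (chr3:89229057-89233381) and Epcam (chr17:87635979-87651129), all on the plus strand. All 9 are protein-coding. Exons of Krt7, Krt8 and Cftr overlap those of a gene on the opposite strand, exons of Spp1 overlap those of a gene on the same strand, and Krt8 has an annotated pseudogene, Krt8-ps. Whether the counting used strand is not given in the sources used here, so that reads of such partners may be included in these 4 values.

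Upstream sequences are shown for Krt8, Krt18 and Muc1, which varied together over the animals, and for Cftr, which varied with Sox9 (both described further on). They are RefSeq promoter sequences of GRCm38.p6, read 5′ to 3′ on the strand of the gene. They end before the gene's start in both annotations and are therefore shorter for Krt8 and Krt18. Capitals mark GC boxes (GGGCGG) and TATA boxes (TATAAA), looked for on both strands.
Krt8 chr15:102004483-102004592: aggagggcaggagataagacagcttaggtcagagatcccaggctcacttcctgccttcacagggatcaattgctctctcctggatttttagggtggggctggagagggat
Krt18 chr15:102027966-102028179: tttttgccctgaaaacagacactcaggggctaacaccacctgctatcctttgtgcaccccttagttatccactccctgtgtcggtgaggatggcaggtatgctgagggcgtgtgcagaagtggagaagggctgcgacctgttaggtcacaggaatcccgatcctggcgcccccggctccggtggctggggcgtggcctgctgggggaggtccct
Muc1 chr3:89228806-89229055: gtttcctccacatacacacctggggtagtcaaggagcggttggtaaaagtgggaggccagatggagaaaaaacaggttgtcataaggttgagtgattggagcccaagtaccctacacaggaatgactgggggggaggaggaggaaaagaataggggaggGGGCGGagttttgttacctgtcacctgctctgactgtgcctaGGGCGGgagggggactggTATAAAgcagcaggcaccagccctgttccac
Cftr chr6:18170437-18170686: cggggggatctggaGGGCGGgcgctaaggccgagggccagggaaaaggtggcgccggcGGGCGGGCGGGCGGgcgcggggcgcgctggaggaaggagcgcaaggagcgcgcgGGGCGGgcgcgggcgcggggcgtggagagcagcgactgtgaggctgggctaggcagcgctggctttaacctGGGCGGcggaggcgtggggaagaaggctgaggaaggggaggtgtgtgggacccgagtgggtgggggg

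Muc1 holds a TATA box 31 to 26 bases before its RefSeq start and a pair of GC boxes further upstream. Cftr holds 6 GC boxes, 3 of which overlap, in a window with a GC content of 76.4%, against a median of 52.4% for all 32851 promoters. The letters of the GC box stand in 32.7% and those of the TATA box in 12.4% of all promoters over 250 bases. Neither motif, nor the letters TGANTCA (AP-1), CCGGAAG (ETS) or ACAATG (SOX core), were in the 250 bases before the RefSeq starts of Krt8 and Krt18; the last 3 are in 6.75%, 6.91% and 10.7% of all promoters. Of the 9 genes 7 were matched to the promoter table; Krt19 and Sox9 were not.

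The ductal genes covered a wide range of levels in islet RNA. By mean RPKM over the 12 animals the order was Spp1 (874), Krt18 (361), Epcam (174), Krt8 (58.2), Krt19 (47.9), Krt7 (34.2), Muc1 (15.7), Sox9 (6.17) and Cftr (4.42). Each gene was compared with its neighbour in this order within the animals by an exact two-sided permutation test, with p-values adjusted over the 8 pairs. Order and pairs came from the means of these same animals, so the p-values are no independent test of the order. Krt19 and Krt7 did not differ beyond their spread (Krt19 above Krt7 in 7 of 12 animals, exact permutation p = 0.236, adjusted 0.236). Krt8 was above Krt19 in 9 of 12 animals and lay at the threshold (exact permutation, adjusted p = 0.0497). The other 6 neighbours were separated in 10 to 12 of the 12 animals (exact permutation, adjusted p between 0.00195 and 0.00781). The least expressed of the genes, Cftr, still had a higher mean than 61.0% of the entries tested, and Spp1 a higher mean than 99.8%.

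The genes also differed in how much they varied between animals. Epcam was the steadiest, between 119 and 235 RPKM, with an SD of 0.25 on the log2 scale. The median SD of the 13357 entries with a mean of at least 1 RPKM was 0.51. Krt7 (SD 0.45, 18.9 to 56.4 RPKM) was also below that median. Krt18 (0.60), Sox9 (0.59), Krt8 (0.71), Krt19 (0.81), Muc1 (0.90), Cftr (0.97) and Spp1 (1.08) were above it. The highest animal exceeded the lowest 14.8-fold for Spp1 and 13.5-fold for Cftr, and 1.97-fold for Epcam. The lowest value of 5 genes, Spp1, Krt18, Krt8, Krt19 and Muc1, was that of Wfs1KO animal 4, one of those with little acinar RNA. The highest values of Sox9 and Cftr were both those of Wfs1HZ animal 2, the other one.

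**Figure D1:**
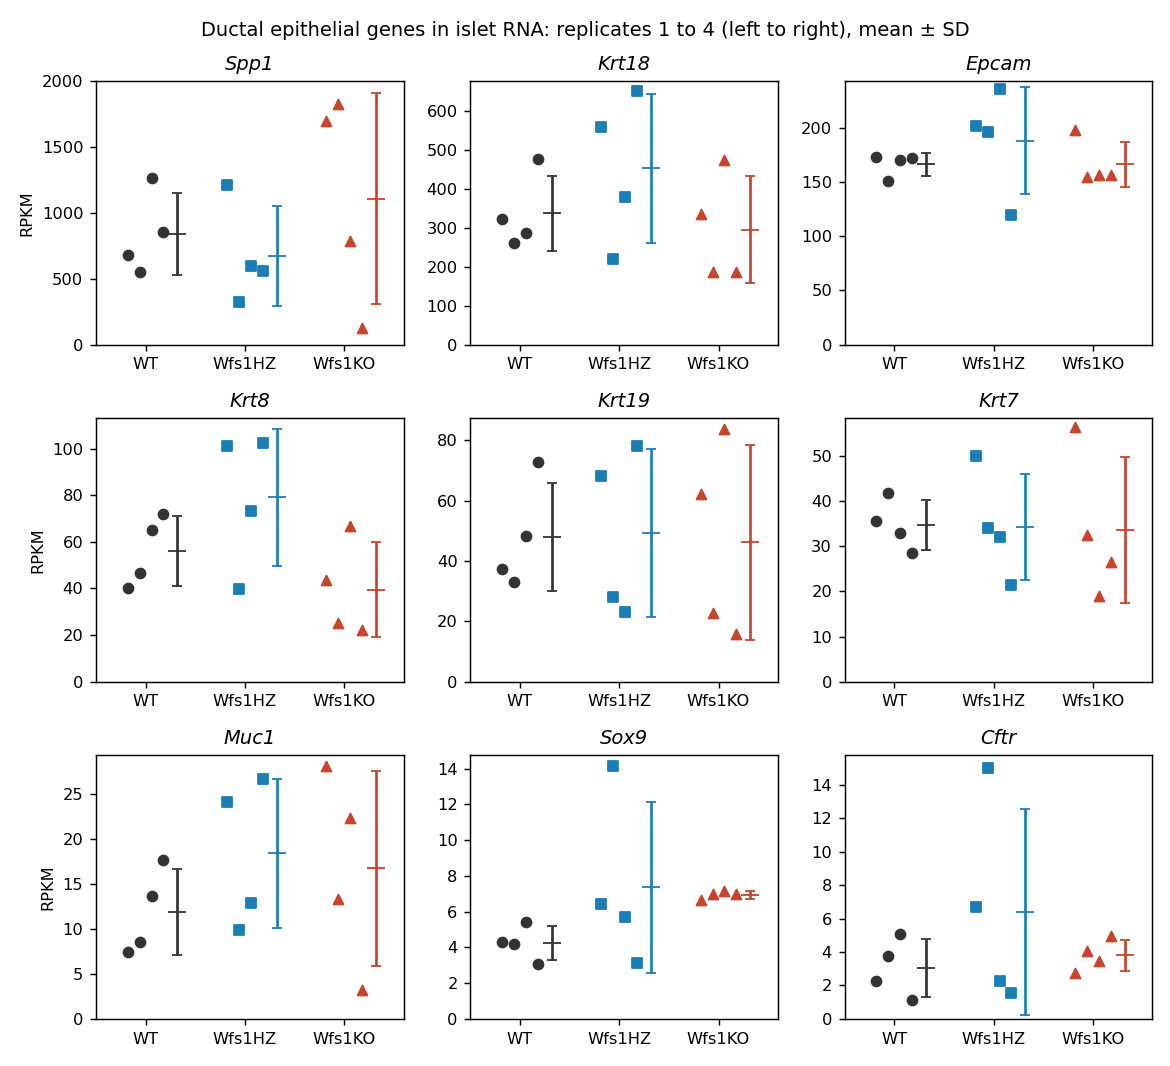
RPKM (linear axis from 0) of the 9 ductal genes in the islets of each animal; points are replicates 1 to 4 of WT, Wfs1HZ and Wfs1KO from left to right, and the bar beside them is the mean ± SD (n = 4). The genotypes overlap for each gene in each comparison except Sox9 in Wfs1KO against WT, where the 4 Wfs1KO animals (6.66 to 7.15 RPKM) all sit above the 4 WT animals (3.06 to 5.41 RPKM).

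The keratin RNA of the preparations was almost entirely that of simple epithelium. Of 47 entries of the keratin family, 5 had a mean of at least 10 RPKM: the 4 described here and Krt23, another type I keratin, at 25.2 RPKM. The 4 keratins held 92.2% of the summed keratin RPKM, and Krt18 alone 66.4%. A further 38 entries had a mean under 1 RPKM. Krt5, Krt14, Krt15, Krt1 and Krt10, keratins of stratified epithelium, summed to between 1.54 and 7.11 RPKM per animal.

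Krt18 exceeded its partner Krt8 in all 12 animals. Krt18 read 323, 260.0, 285 and 476 RPKM in WT animals 1 to 4, 557, 219.9, 379 and 651 RPKM in Wfs1HZ, and 335, 186, 472 and 185 RPKM in Wfs1KO. Krt8 read 40.3, 46.8, 65.3 and 71.8 RPKM in WT, 101, 39.7, 73.3 and 102 RPKM in Wfs1HZ, and 43.7, 25.2, 66.6 and 22.3 RPKM in Wfs1KO. The same animals were high for both genes, with Wfs1HZ 4 the highest and Wfs1KO 4 the lowest. The ratio of Krt18 to Krt8 ranged from 4.37 in WT 3 to 8.31 in Wfs1KO 4 (median 6.50). Taking the 4 genes together, type I keratins exceeded type II keratins 3.31-fold to 6.50-fold.

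The duct pair was less even. Krt19 read 37.5, 33.2, 48.2 and 73.0 RPKM in WT, 68.3, 28.0, 23.1 and 78.2 RPKM in Wfs1HZ, and 62.4, 22.8, 83.9 and 15.8 RPKM in Wfs1KO. Krt7 ranged from 28.6 to 41.8 RPKM in WT, 21.5 to 49.9 RPKM in Wfs1HZ and 18.9 to 56.4 RPKM in Wfs1KO. Within each genotype the animals of Krt19 were thus widely scattered, and all 3 genotypes overlapped for both genes. The ratio of Krt19 to Krt7 went from 0.597 in Wfs1KO 4 to 4.43 in Wfs1KO 3, and was above 1 in 7 of 12 animals.

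Sox9 was the only one of the 9 genes whose Wfs1KO and WT animals did not overlap. It read 4.28, 4.20, 5.41 and 3.06 RPKM in WT, 6.45, 14.2, 5.69 and 3.10 RPKM in Wfs1HZ, and 6.66, 6.96, 7.15 and 6.97 RPKM in Wfs1KO. The Wfs1KO animals lay close together, all above WT, whereas the Wfs1HZ animals spanned both groups. Cftr, the other low gene, read 2.25, 3.76, 5.09 and 1.11 RPKM in WT, 6.70, 15.02, 2.27 and 1.57 RPKM in Wfs1HZ, and 2.72, 4.08, 3.47 and 4.94 RPKM in Wfs1KO, with overlap of all genotypes.

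Spp1 and Muc1, the secreted and apical glycoproteins, had their largest SD in Wfs1KO islets (803 and 10.9 RPKM). Spp1 read 677, 554, 1268 and 855 RPKM in WT, 1215, 324, 600.2 and 559 RPKM in Wfs1HZ, and 1697, 1827, 789 and 124 RPKM in Wfs1KO, so that the highest and the lowest animal were both Wfs1KO. Muc1 read 7.50, 8.60, 13.7 and 17.7 RPKM in WT, 24.2, 9.92, 12.9 and 26.7 RPKM in Wfs1HZ, and 28.1, 13.4, 22.4 and 3.24 RPKM in Wfs1KO. The highest and the lowest animal for Muc1 were Wfs1KO 1 and Wfs1KO 4. Epcam ranged from 151 to 173 RPKM in WT, 119 to 235 RPKM in Wfs1HZ and 155 to 198 RPKM in Wfs1KO.

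The first comparison asks how islets without intact wolframin differ from WT. None of the 9 ductal genes passed an FDR of 0.05 between Wfs1KO and WT in limma (0 of 9; 3 of all 21701 entries, 0.0138%). At an unadjusted p under 0.05 there was 1 of 9, Sox9, beside 5.64% of all entries, and likewise 1 of 9 had genotypes that did not overlap, beside 2.74% of all entries. The difference of Sox9 was 0.72 on the log2 scale (SE 0.21, 95% interval 0.24 to 1.21, limma adjusted p = 0.835), with an exact two-sided permutation p of 0.0286, the smallest that 4 against 4 animals can give. It stayed between 0.58 and 0.85 over all alternative settings, with an adjusted p between 0.483 and 1. The result for Sox9 thus failed the correction over the table.

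Stromal and endothelial markers moved with Sox9 in this comparison. Of the 10 stromal markers 9 were higher in Wfs1KO, with a median difference of 1.20, and all 6 endothelial markers were higher, with a median of 0.62. Over all entries 57.4% were higher, with a median of 0.07. None of these markers passed the FDR, and 2 stromal and 1 endothelial marker were higher at an unadjusted p under 0.05. In Wfs1HZ against WT, too, 9 of 10 stromal (median 0.79) and all 6 endothelial markers (median 0.67) were higher, beside 53.2% of all entries. However, Wfs1HZ 2 stood alone in the summed stromal RPKM, at 536. The other Wfs1HZ animals, at 30.6 to 110.0, lay close to the range of WT. The summed endothelial RPKM in Wfs1HZ was 29.5 to 139. Whether the stromal shift in Wfs1HZ holds without Wfs1HZ 2 was not tested. Between Wfs1KO and Wfs1HZ 7 of 10 stromal and 3 of 6 endothelial markers were higher. The summed stromal RPKM was 33.1 to 114 in WT and 87.2 to 223 in Wfs1KO, and the summed endothelial RPKM 26.9 to 84.0 in WT and 76.5 to 95.8 in Wfs1KO. No stromal or endothelial marker was at 0 in any animal. Dcn, a collagen-binding proteoglycan of fibroblasts, read 14.0 to 28.8 RPKM in WT and 42.0 to 73.1 RPKM in Wfs1KO (difference 1.39, SE 0.27, limma adjusted p = 0.435), and its animals did not overlap either. The part of these cells in the Sox9 difference was not tested.

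The remaining 8 genes had differences between -0.61 (Krt8) and 0.47 (Cftr). In all, 3 of 9 were higher and 6 lower in Wfs1KO, with a median of -0.11, while 57.4% of all entries were higher. For Epcam the 95% interval was narrow, -0.39 to 0.37. For Spp1 it ran from -1.92 to 1.71, so that large differences in either direction lie within it. Wfs1KO animal 4 weighed on these values: without it 6 of 9 were higher, the median was 0.11, Muc1 stood at 0.86 in place of 0.20 and Spp1 at 0.75 in place of -0.11. Without Wfs1KO animal 3, 4 of 9 were higher, with Krt19 at -0.69 and Krt8 at -0.91. The count was 5 of 9 without WT animal 3.

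In Wfs1HZ against WT islets, which asks whether a single mutant allele changes these genes, 0 of 9 passed the FDR in limma (0 of all entries, 0%). None had an unadjusted p under 0.05 (2.35% of all entries), and the genotypes overlapped for all 9 (1.66% of all entries did not). Here 6 of 9 were higher in Wfs1HZ, with a median difference of 0.35, beside 53.2% and 0.04 for all entries. The largest differences were those of Cftr (0.71, SE 0.72), Sox9 (0.60, SE 0.43) and Muc1 (0.59, SE 0.39). Without Wfs1HZ animal 2 the values of Cftr and Sox9 were 0.13 and 0.22, and that of Muc1 was 0.85. Without Wfs1HZ animal 4 they were 1.18 for Cftr, 0.94 for Sox9 and 0.38 for Muc1, and 7 of 9 were higher.

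Between Wfs1KO and Wfs1HZ islets, too, 0 of 9 genes passed the FDR in limma (0 of all entries, 0%), and no gene had genotypes that did not overlap (1.43% of all entries). An unadjusted p under 0.05 was found for 1 of 9, Krt8, beside 2.45% of all entries. Krt8 was lower in Wfs1KO by a log2 difference of -1.05 (SE 0.41, 95% interval -1.96 to -0.14, limma adjusted p = 1), with an exact two-sided permutation p of 0.114. Its partner Krt18 was at -0.62 (SE 0.45, limma adjusted p = 1). These comparisons share animals with those against WT and are not independent of them. Of the 9 genes 2 were higher and the median was -0.22, beside 53.5% and 0.04 for all entries. Without Wfs1HZ 1 or without Wfs1KO 4 the number higher was 4, without Wfs1KO 1 it was 1, and without both Wfs1HZ 2 and Wfs1KO 4 it was 5, with Krt8 at -1.12. Without both Wfs1HZ 4 and Wfs1KO 3 it was 1, Spp1 at 0.23, with Krt8 at -1.19.

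**Figure D2:**
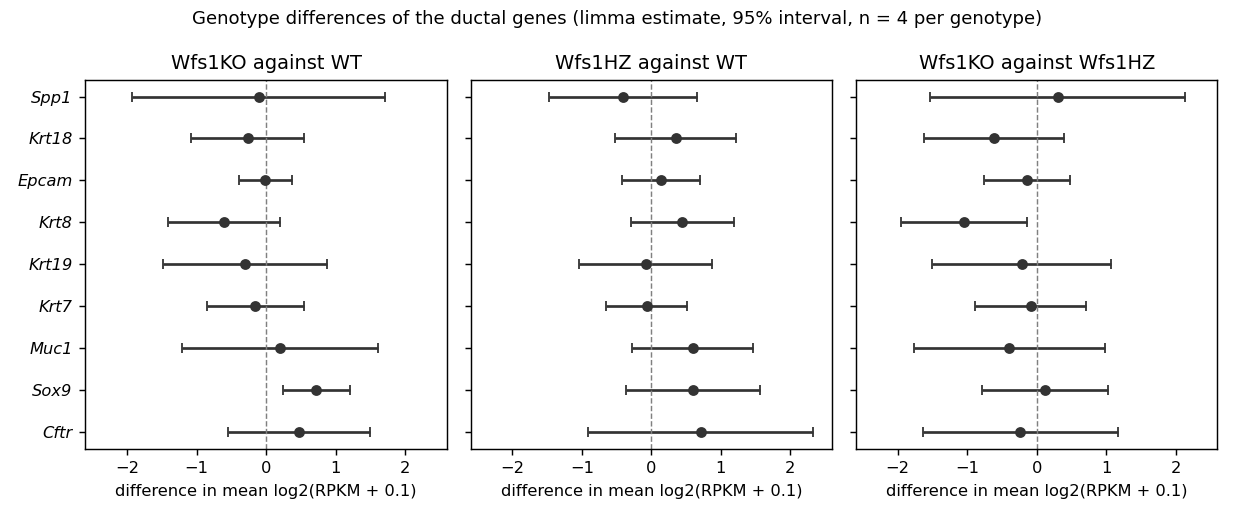
Difference in mean log2(RPKM + 0.1) of the 9 ductal genes between each pair of genotypes; points are limma estimates, bars 95% intervals not adjusted for the number of tests (n = 4 per genotype), and the dashed line is no difference. The bar leaves the line for Sox9 in Wfs1KO against WT (0.24 to 1.21) and for Krt8 in Wfs1KO against Wfs1HZ (-1.96 to -0.14).

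Further duct genes were described by a list of 18, all of which were tested. Against WT, 11 were higher and 7 lower in Wfs1KO (median 0.11), and 10 were higher and 8 lower in Wfs1HZ (median 0.06); none passed the FDR in limma. Lcn2, a secreted lipocalin, had the highest level, between 193 and 2861 RPKM, followed by Tff2, a trefoil peptide, and Cldn4, a tight junction protein. Lcn2 was lowest in Wfs1KO 4 and next lowest in Wfs1HZ 2. Only Krt23, a type I keratin, had an unadjusted p under 0.05, in 2 of the 3 comparisons. It was at 1.14 (SE 0.46, limma adjusted p = 1) in Wfs1HZ against WT and at -1.72 (SE 0.61, limma adjusted p = 1) in Wfs1KO against Wfs1HZ.

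General epithelial genes were described by a list of 8. In Wfs1KO against WT 3 of 8 were higher, with a median of -0.14, and Dsp (desmoplakin) had the one unadjusted p under 0.05, at -0.51 (SE 0.18, limma adjusted p = 0.835). Dsp had the one such value in Wfs1KO against Wfs1HZ as well, at -0.66 (SE 0.24), and did not pass the FDR there. The summed RPKM of the 8 genes was 411 to 481 in WT, 424 to 512 in Wfs1HZ and 377 to 436 in Wfs1KO.

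Other cell types gave few values with an unadjusted p under 0.05 in limma, and none passed the FDR. Of the 14 acinar markers tested 4 were higher and 10 lower in Wfs1KO against WT (median -0.19), and Bhlha15, an acinar transcription factor, was at 0.77 in this comparison and at -0.94 in Wfs1HZ against WT. Between Wfs1KO and Wfs1HZ it was at 1.71 (SE 0.40, limma adjusted p = 1), and its animals did not overlap. The paper, which used edgeR, lists Bhlha15 among its genes with an FDR under 0.05 in that comparison, also as higher in Wfs1KO. Of the 11 endocrine markers tested 5 were higher and 6 lower in Wfs1KO (median -0.25), with Slc2a2, the glucose transporter of beta cells, at -1.03. In Wfs1KO against Wfs1HZ Slc2a2 was at -1.21 (SE 0.38, limma adjusted p = 1), again without overlap. Among stromal, endothelial and immune markers Dcn (given above), Lum (1.29), Cdh5 (1.35) and the complement gene C1qb (2.80) had such values in Wfs1KO against WT, as did C1qa (-1.65) in Wfs1HZ against WT. C1qb was near the floor in WT (0 to 0.29 RPKM), so its difference depends on the pseudocount of 0.1, and C1qa was at -0.44 in Wfs1KO against WT. None of the 5 keratins of stratified epithelium had an unadjusted p under 0.05.

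The next question was how the ductal genes varied among themselves over the 12 animals. Of 36 pairs, 8 had a correlation of log2(RPKM + 0.1) with an adjusted p under 0.05, all of them positive (two-sided permutation test, Benjamini-Hochberg over 36). By rank correlation 2 pairs passed, and 6 passed after the genotype means were subtracted. Krt8, Krt18, Krt19 and Muc1 were correlated in each of their 6 pairs, and Sox9 and Cftr formed a pair of their own. The last of the 8 was Spp1 with Muc1. Krt7 and Epcam were in none.

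Krt8 and Krt18 were the closest pair (r = 0.92 and rho = 0.92, permutation adjusted p = 0.00288 for both, and r = 0.92 within genotypes). Their r was 0.85 without the 2 animals farthest from the median of Krt8, and it passed the threshold with each of the 12 animals left out. Krt18 with Krt19 had r = 0.84 and rho = 0.84 (permutation adjusted p = 0.0104 and 0.0218), and Krt19 with Muc1 had r = 0.83 and rho = 0.76 (permutation adjusted p = 0.00864 and 0.0829). Both passed with each animal left out except Wfs1KO 4, without which r was 0.79 and 0.75.

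The remaining pairs of this set were looser. Krt8 with Krt19 had r = 0.75 (permutation adjusted p = 0.0332), Krt18 with Muc1 r = 0.74 (0.0332) and Krt8 with Muc1 r = 0.71 (0.0395), and these passed in 3 to 5 of 12 leave-outs. Spp1 with Muc1 (r = 0.73, rho = 0.58, permutation adjusted p = 0.0395 and 0.232) passed in 3 of 12 leave-outs, and without Wfs1KO animal 4 its r was 0.43. Leaving out 1 animal changed the number of pairs that passed. It was 2 without Wfs1KO 4, 3 without Wfs1HZ 2, 4 without WT 2, WT 4, Wfs1HZ 1 or Wfs1KO 3, and 5 without WT 1 or Wfs1HZ 4. Without both Wfs1KO 4 and Wfs1HZ 2 it was 1, with r still 0.89 for Krt8 and Krt18 and 0.76 for Krt18 and Krt19, and without both Wfs1HZ 4 and Wfs1KO 3 it was 3.

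Sox9 and Cftr had r = 0.86 (permutation adjusted p = 0.00864), rho = 0.66 (permutation adjusted p = 0.147) and r = 0.90 within genotypes. Without the 2 animals farthest from the median of Sox9, WT 4 and Wfs1HZ 2, their r was 0.62, and without Wfs1HZ 2 alone it was 0.75 and no longer passed. Against Krt18 both genes had negative values (r = -0.52 for Sox9 and -0.51 for Cftr, permutation adjusted p = 0.279 for both). Of all 36 correlations 21 were above 0.

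**Figure D3:**
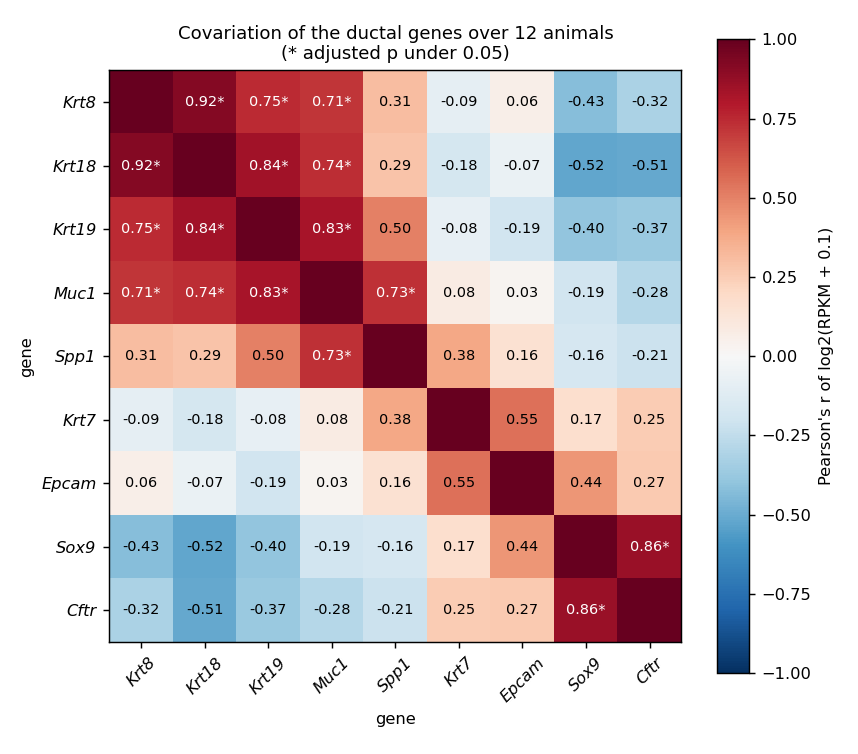
Pearson's r of log2(RPKM + 0.1) for each pair of ductal genes over the 12 animals, from blue (-1) through white (0) to red (1), with an asterisk where the permutation adjusted p was under 0.05. Krt8, Krt18, Krt19 and Muc1 form a red block (r from 0.71 to 0.92), Sox9 and Cftr a second one (0.86), and the cells between both blocks are blue.

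The 9 genes were then set against the summed RPKM of marker genes of acinar, endocrine, stromal, endothelial and immune cells, a choice made after the data had been seen. Of these 45 relations 8 had an adjusted p under 0.05, all positive (two-sided permutation test, Benjamini-Hochberg over 45). By rank 7 positive and 2 negative relations passed. The 8 divided the ductal genes along the same line. The 4 genes of the first block went with acinar RNA, and Sox9 and Cftr with stromal and endothelial RNA.

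With the acinar sum r was 0.78 for Krt19 and Krt18 (permutation adjusted p = 0.0151 for both), 0.78 for Muc1 (0.0166) and 0.72 for Krt8 (0.0422). The rank correlations were 0.85, 0.80, 0.81 and 0.77 in this order (permutation adjusted p between 0.0209 and 0.0281). Without Wfs1HZ 2 and Wfs1KO 4, the animals farthest from the median of the acinar sum, r was 0.73, 0.71, 0.66 and 0.63. Without Wfs1HZ 4 and Wfs1KO 3, the highest in acinar RNA, it was 0.67, 0.67, 0.71 and 0.64. Within genotypes it was 0.77, 0.85, 0.83 and 0.88. Of the 14 acinar genes 12 to 13 had r above 0.5 with each of these 4. Spp1 had r = 0.64 with the acinar sum (permutation adjusted p = 0.116), -0.20 without Wfs1HZ 2 and Wfs1KO 4, and 0.84 without Wfs1HZ 4 and Wfs1KO 3.

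With the stromal sum r was 0.93 for Cftr and 0.91 for Sox9 (permutation adjusted p = 0.00135 and 0.00270). The rank correlations were 0.92 for Cftr (permutation adjusted p = 0.00450) and 0.71 for Sox9 (0.0528). Wfs1HZ 2 had the highest stromal sum, 536 RPKM, and without it and Wfs1HZ 4 the values were 0.84 and 0.75; within genotypes they were 0.93 and 0.91. All 10 stromal markers had r above 0.5 with both genes. With the endothelial sum r was 0.79 for Cftr and 0.76 for Sox9 (permutation adjusted p = 0.0151 for both), 0.80 and 0.68 within genotypes, and 0.58 and 0.50 without WT 4 and Wfs1HZ 4. The negative relations that passed by rank were Cftr with the immune sum (rho = -0.81, permutation adjusted p = 0.0209) and Krt18 with the stromal sum (rho = -0.77, permutation adjusted p = 0.0281). Their r was -0.69 and -0.68 (permutation adjusted p = 0.0659 and 0.0592), -0.67 and -0.81 within genotypes, and -0.65 and -0.56 without the 2 animals farthest from the median of each sum. Of the 9 immune genes, however, 5 had r above 0.5 with Cftr and 1 had r below -0.5. The immune sum leans on Cd68, which made up 142 of 149 RPKM in WT 4 and 17.1 of 46.2 RPKM in Wfs1HZ 2. Of the 10 stromal genes 8 had r below -0.5 with Krt18 and 0 had r above 0.5. Epcam and Krt7 passed with none of the 5 sums. Since RPKM divide 1 total among all genes, and acinar genes hold a large part of it, such relations also carry that sharing, and its part was not tested.

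**Figure D4:**
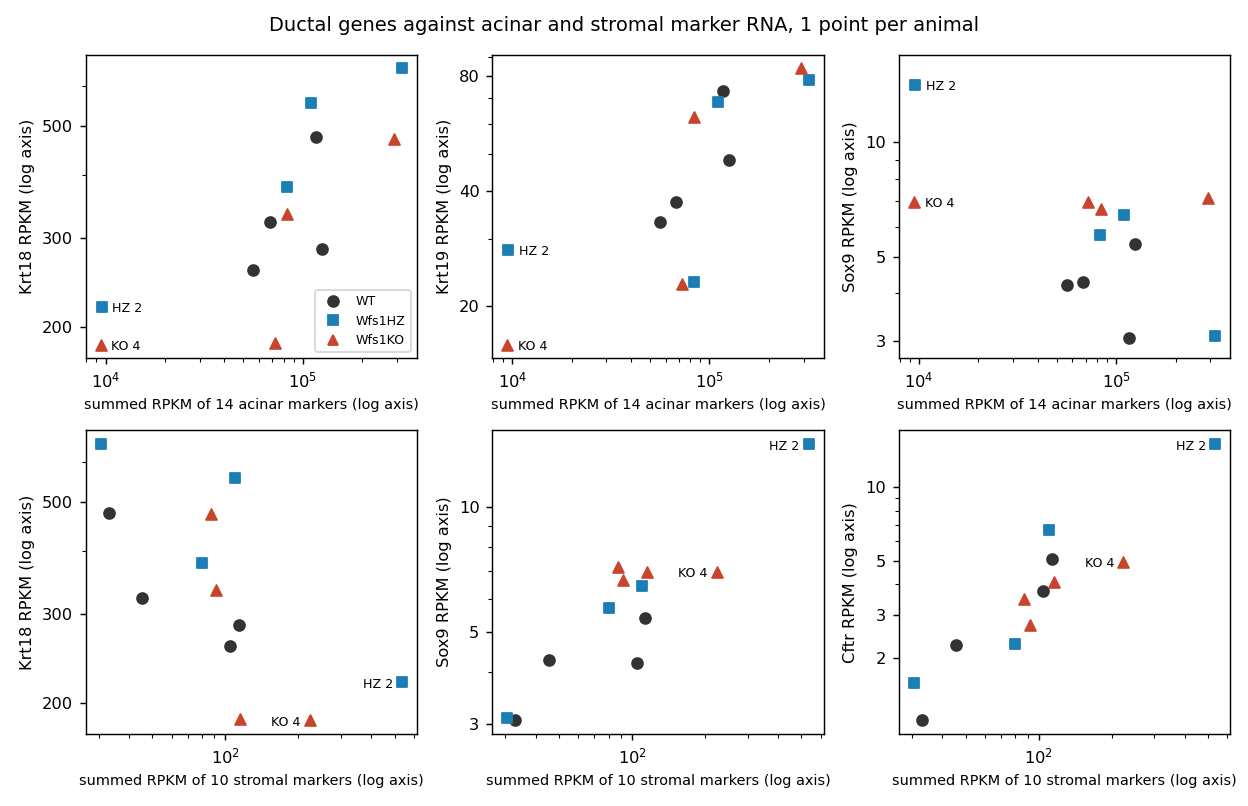
RPKM of ductal genes (log axis) against the summed RPKM of 14 acinar markers (upper row: Krt18, Krt19 and Sox9) and of 10 stromal markers (lower row: Krt18, Sox9 and Cftr), both log axes, with 1 point for each animal and the genotype by colour and shape. Wfs1HZ 2 and Wfs1KO 4, labelled, lie far left in the upper row at 9559 and 9440 RPKM; Sox9 and Cftr climb with the stromal sum up to Wfs1HZ 2 at 536 RPKM.

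Krt19 served as the reference for genes of a like pattern, since it is the keratin most used to define duct cells. Among 13356 entries with a mean of at least 1 RPKM, the 10 with the highest r over the 12 animals, the other ductal genes left out, were Cckar (r = 0.92), Clu, Reg3g, Serpinb1a, Tspan1, Reg2, Itgb4, Reg3b, B4galnt1 and Actn1 (r = 0.88). Cckar codes for a receptor of cholecystokinin, the hormone that drives acinar secretion, and Reg2, Reg3b and Reg3g are secreted lectins of the pancreas. Tspan1 is among the 18 further duct genes above. On this scale Krt18 ranked 17, Muc1 21 and Krt8 61, Spp1 ranked 325, and Krt7 (3097), Epcam (4304), Cftr (6910) and Sox9 (7315) were far down. These ranks are a description over 12 libraries that differ in depth and in acinar RNA.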

How the data were processed

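The authors made cDNA from 10 ng of islet RNA, sequenced it on a SOLiD instrument and mapped the reads to mm10 with LifeScope. They deposited RPKM, 1 column per animal, rounded to 2 decimals. The tool that counted reads, its annotation and its use of strand are not given in the sources used here. RPKM are not counts, so the edgeR test on counts was not repeated.

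RPKM were used as deposited, as log2(RPKM + 0.1), on which scale differences of low genes are understated. Each pair of genotypes was fitted with limma 3.58.1 (R 4.3.3, variance trend) over 21701 entries with a mean of at least 0.1 RPKM, with Benjamini-Hochberg adjustment over all of them. The procedure was tested on simulated data. Single genes were also compared by exact two-sided permutation tests. Correlations used 100000 resamples, whose smallest p is 1e-05. Depth was estimated from genes under 200 nt, whose RPKM are multiples of 1 read: 95.8% to 100% of their values were whole within 0.05. The depth was chosen to make this share high, so the share is no independent check of it. Other steps ran in Python 3.11.15 (scipy 1.17.1, pandas 2.3.3, numpy 2.4.6), with plots by matplotlib 3.10.9.

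The 9 genes and all lists were chosen with earlier results of these data known. Of the further duct genes 2 are not reported here and were left out of the list and its counts. Of 92 listed genes 91 were in the table under their name (Amy2a5 was not), and Mafa did not reach the filter. Named are the 9 genes, Wfs1, listed genes with an unadjusted p under 0.05 or among the 3 highest of a list, and the 10 entries most like Krt19; the other genes named were chosen after their values were seen. Alternatives were pseudocounts of 1 and 0.01, a filter at 1 RPKM or none, quantile normalization, scaling by median of ratios, 1 fit of all 12 samples, a replicate block and the omission of each animal in turn.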

Additional observations from a re-analysis of the deposited data

Results flagged for a closer look

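In groups of 4 animals, a sample was set apart where its gap to the nearest of the others, divided by the range of the group, exceeded Dixon's critical value at the 95% level. Chance alone does so in about 1 of 20 groups, and 7 of 108 groups were set apart here.

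Among the 9 ductal genes this concerned Epcam, at 151 RPKM in WT 2 against 170 to 173 RPKM in the other WT animals, and at 198 RPKM in Wfs1KO 1 against 155 to 156 RPKM. Both gaps are small in size, because the other animals lay close together.

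The other 5 concerned related lists. Wfs1HZ 2 stood above the other heterozygotes for Muc6 (7.54 against 0.53 to 1.04 RPKM) and for the summed stromal markers (536 against 30.6 to 110.0 RPKM). Car2 was at 36.02 RPKM in WT 3 against 4.69 to 9.06 RPKM. Ehf was at 25.5 RPKM in Wfs1KO 4 against 51.1 to 55.0 RPKM, and Slc4a4 at 4.69 RPKM in Wfs1KO 3 against 7.37 to 7.62 RPKM.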

How the results depend on the processing

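With 4 animals per genotype, 0 of 9 ductal genes passed the FDR in any comparison under any alternative. Outside the leave-outs only Krt7 in Wfs1HZ against WT changed sign, to 0.0074 under quantile normalization. Leaving out 1 animal gave 2 to 6 genes higher and a median of -0.37 to 0.11 in Wfs1KO against WT, with Krt7 at -0.44 to 0.084, Krt19 at -0.69 to 0.11, Spp1 at -0.54 to 0.75, Muc1 at -0.17 to 0.86 and Epcam at -0.094 to 0.023. In Wfs1HZ against WT it gave Krt7 at -0.27 to 0.14 and Krt19 at -0.37 to 0.22. In Wfs1KO against Wfs1HZ it gave 1 to 4 genes higher, Krt7 at -0.37 to 0.15, Krt19 at -0.61 to 0.19, Sox9 at -0.21 to 0.51, Spp1 at -0.13 to 1.16, Cftr at -0.71 to 0.35 and Muc1 at -0.76 to 0.26. The number of correlated pairs was 2 to 8 in the leave-outs, 11 when scaled by median of ratios and 6 when quantile normalized. Leaving out Wfs1HZ 2 and Wfs1KO 4 together, an alternative added after the data had been seen, gave 1 pair and, between these genotypes, 5 genes higher, Krt7 at 0.0055, Cftr at 0.21 and Muc1 at 0.0054. Leaving out Wfs1HZ 4 and Wfs1KO 3 together, also added then, gave 3 pairs and, between these genotypes, 1 gene higher and Sox9 at -0.23. The cause of these changes was not tested.

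With the replicate block the count at an FDR under 0.05 was 0 of 9 in each comparison and the block changed no call on these genes. The numbers are labels of different animals, and the correlation of the deviations of same-numbered animals was -0.13 to 0.06 in Wfs1KO against WT, -0.05 to 0.23 (mean 0.11) in Wfs1HZ against WT and -0.17 to 0.09 in Wfs1KO against Wfs1HZ. In Wfs1HZ against WT 3 of 4 animals correlated best with their own number, a hint from the data and not from the design, beside 1 and 0 of 4 in the others. Over all entries in Wfs1KO against WT, 3 passed the FDR, 0 with the block, a pseudocount of 1 or no filter, 1 with all samples in a single fit, 0 or 1 with an animal left out, and 5 after quantile normalization. At an unadjusted p under 0.05 there were 1225, 658 in the single fit and 1870 without Wfs1KO 4. In Wfs1HZ against WT there were 511, 854 with the block, 897 when scaled by median of ratios and 955 when quantile normalized; 46.2% of the 511 were higher, but 81.0% of 1087 without Wfs1HZ 4, 19.6% of 1053 without Wfs1HZ 2, 48.7% of 306 without WT 1 and 54.4% of the 897. In Wfs1KO against Wfs1HZ there were 532, 886 after quantile normalization, 1308 without Wfs1HZ 2, 340 without Wfs1KO 1 and 348 without Wfs1KO 2. Of the calls 69.2% were higher in Wfs1KO against WT, but 56.6% when scaled by median of ratios and 46.8% when quantile normalized, and 69.2% were higher in Wfs1KO against Wfs1HZ, but 49.8% and 51.2%.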

Other observations

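Sox9 and Krt7 were each used as a further reference pattern, a choice made after the data had been seen, as a description over 12 animals with no test. The entries most like Sox9 were Dpep1 (r = 0.97), Dcn (0.96), Cdh13 (0.96), Anxa3 (0.96), Ecm2, Nup50, Flrt2, Ube2g2, Snhg7 and Fos. Wfs1HZ 2 was far above the rest both for Sox9 (14.2 RPKM, the others at most 7.15) and for Dcn (224 RPKM, the others at most 73.1). The ranking was not repeated without Wfs1HZ 2. Dcn and Ecm2 code for proteins of the extracellular matrix, and Cdh13 for a cadherin without a transmembrane part. Among 13356 entries Cftr ranked 144 for its likeness to Sox9, and Krt18 ranked 13085. The entries most like Krt7 were Psmc2 (r = 0.94), Golga2 (0.94), Rbpms (0.93), Gramd1b, Snrpb, Sart1, Prmt2, Ssrp1, Psmd4 and Cct7, which include parts of the proteasome (Psmc2, Psmd4), of the chaperonin (Cct7) and of the splicing machinery (Snrpb, Sart1). No ductal gene was close to Krt7, the nearest being Epcam at rank 2336.

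Krt7 had r = -0.24 with the summed acinar markers over all 12 animals and -0.74 without Wfs1HZ 2 and Wfs1KO 4. Without Wfs1HZ 4 and Wfs1KO 3 it was 0.35, so the sign depended on the animals left out. Of the 14 acinar genes 0 had r below -0.5 with Krt7 over all 12 animals. These values were noticed in the data and are given without a test.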
